A study of Homo sapiens with 12 samples.

Results

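The 40 genes described here encode the machinery that copies chromosomal DNA: 9 licensing genes (ORC1 to ORC6, CDC6, CDT1 and GMNN), 12 helicase genes (MCM2 to MCM7, MCM10, CDC45 and GINS1 to GINS4), 9 primase and polymerase subunits (POLA1, POLA2, PRIM1, PRIM2, POLE2, POLE3, POLE4, POLD2 and POLD3), the 5 clamp loader subunits RFC1 to RFC5, the 3 subunits of the single-strand binding protein RPA, and FEN1 and LIG1, which mature the lagging strand. They were taken by name and not by a measured value, though with earlier results of these data known. A peak belonged to a gene when its midpoint lay in the GRCh38 span of the gene on the same strand, and a peak was listed for 31 of the 40 genes. They were set beside 15848 protein-coding genes of known strand, of which 9903 had a peak. The span includes introns, and whether a peak lay in an exon, an intron or an untranslated region was not determined here.

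The peaks come from acetylated RNA immunoprecipitation sequencing (acRIP-seq) of SW620, a human colorectal cancer cell line. In this assay an anti-ac4C antibody enriches RNA fragments that carry N4-acetylcytidine (ac4C), an acetylated form of cytidine, and the enriched stretches are listed as peaks. The control IP group was labelled shControl and wild type, with 3 libraries. The NAT10 knockdown IP group was labelled shNAT10, with 3 libraries in which a short hairpin RNA lowers NAT10, the acetyltransferase that writes ac4C. The hairpins were delivered by lentivirus in stable lines, the labels do not say which NAT10 hairpin was used, and nothing in them shows that the replicates were separate cultures, so p-values measure the spread between these libraries, which may be technical. The 6 input libraries were not used here.

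In licensing, the origin recognition complex (ORC) and CDC6 sit on replication origins and, with CDT1, load the MCM2 to MCM7 ring onto DNA, while geminin (GMNN) blocks CDT1 after its use. In S phase CDC45 and the GINS complex join the ring to form the active helicase, and MCM10 takes part in that step. DNA polymerase alpha with primase lays the primers, polymerases epsilon and delta extend them on the leading and lagging strand, RFC loads the sliding clamp PCNA, RPA covers single-stranded DNA, FEN1 cuts flaps and LIG1 seals nicks. Transcription of many of these genes rises at the start of S phase through E2F factors, which bind GC-rich sites close to transcript starts. Proliferating tumour cells such as SW620 use the whole set.

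The depth of the libraries is unknown, since the lists hold no read counts. The libraries listed between 17877 and 28752 peaks, and knockdown 1 had both the most peaks and the shortest, with a median length of 189 bases against 201 to 228 in the other 5. Each peak has a score of the authors, and the score 3100 was shared by 7.61% to 13.7% of the peaks in a library. Scores were turned into percentiles within a library, on which that tie sits between 92.7 and 96, so peaks at the tie have no order. Values are given below for replicates 1, 2 and 3 in turn, and with 3 libraries against 3 the smallest two-sided exact permutation p is 0.1. The labelled target, NAT10, had 1, 0 and 2 peaks in control and 2, 0 and 1 after knockdown, though peak numbers do not give the amount of its mRNA. Of 10 colorectal epithelial genes 7 (70%) had a peak, against 62.5% of all genes, and KRT18, KRT20 and CDX1 had none. In all 6 libraries a peak was listed for 5 (50%, against 31%), among them EPCAM, VIL1 and CDX2. Of 8 genes of immune, stromal and endothelial cells 2 (COL1A1 and VWF, 25%) had a peak in some libraries. Genes without a known strand, 7 of these 10 and 6 of these 8, were counted on either strand.

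Many peaks of the replication genes lay at transcript starts, so the sequences around those of 7 genes are printed first. Each runs from 100 bases before the transcript start to 30 bases after it, 5′ to 3′ on the strand of the gene, as given by RefSeq for GRCh38.p14. Capitals mark the letters TTTCCCGC, TTTCGCGC, TTTGCCGC and TTTGGCGC on either strand, which are forms of the E2F site, and overlapping matches run together. CDC6, MCM2, MCM3, GINS2 and POLE4 are shown because a start peak was listed in all 6 libraries, RFC3 because its start peak was listed in knockdown libraries only, and RFC2 as a gene with a start peak in all 6 libraries and no match.
CDC6, chr17:40287779-40287908, plus strand: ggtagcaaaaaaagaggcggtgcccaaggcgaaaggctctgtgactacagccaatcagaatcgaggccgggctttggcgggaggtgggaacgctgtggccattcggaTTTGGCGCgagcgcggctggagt
MCM2, chr3:127598311-127598440, plus strand: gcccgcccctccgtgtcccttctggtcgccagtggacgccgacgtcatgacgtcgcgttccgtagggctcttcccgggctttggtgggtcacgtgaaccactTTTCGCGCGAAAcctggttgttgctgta
MCM3, chr6:52284713-52284842, minus strand: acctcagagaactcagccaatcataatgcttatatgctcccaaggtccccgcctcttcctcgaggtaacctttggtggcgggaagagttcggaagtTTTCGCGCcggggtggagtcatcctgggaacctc
GINS2, chr16:85688925-85689054, minus strand: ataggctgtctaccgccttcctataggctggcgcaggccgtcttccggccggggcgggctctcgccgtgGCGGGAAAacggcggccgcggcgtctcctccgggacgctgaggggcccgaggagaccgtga
POLE4, chr2:74958543-74958672, plus strand: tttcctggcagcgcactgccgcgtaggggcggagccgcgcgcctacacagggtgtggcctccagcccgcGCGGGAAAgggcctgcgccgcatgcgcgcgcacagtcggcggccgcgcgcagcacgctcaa
RFC3, chr13:33818049-33818178, plus strand: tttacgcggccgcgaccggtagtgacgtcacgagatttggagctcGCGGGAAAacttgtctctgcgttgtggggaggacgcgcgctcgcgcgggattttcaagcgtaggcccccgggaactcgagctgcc
RFC2, chr7:74254370-74254499, minus strand: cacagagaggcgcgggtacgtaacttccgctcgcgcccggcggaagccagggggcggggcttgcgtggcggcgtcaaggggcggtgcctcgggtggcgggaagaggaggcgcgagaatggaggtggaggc

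At least 1 of the 4 motifs was found in 16 of the 34 replication gene windows in the RefSeq table (47.1%), counted over 250 bases before to 50 after the first listed start, against 703 of 15842 windows of all genes (4.44%). In MCM2 the matches on both strands overlapped and began at bases 3 and 7, counting the start as 1. CDC6 held TTTGGCGC from base 8, and MCM3 held TTTCGCGC 4 bases before it and TTTCCCGC 174 bases before it. GINS2 and POLE4 both held GCGGGAAA, the reverse complement of TTTCCCGC, 31 bases before the start, and RFC3 held it 55 bases before. These matches are letters in DNA and were not tested as binding sites. A start peak in all 6 libraries was listed for 8 of the 16 replication genes with a match and for 2 of the 18 without one. Over all genes the shares were 24.9% of 703 and 17.6% of 15139, and no test was made of either difference.

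Peaks were listed for 31 of 40 replication genes (77.5%), against 62.5% of all 15848 genes, and in all 6 libraries for 20 (50%), against 31%. The 9 genes with no peak by the midpoint rule were ORC1 and ORC3 of the origin recognition complex, MCM4 and MCM7 of the MCM ring, GINS3, both primase subunits PRIM1 and PRIM2, the polymerase epsilon subunit POLE2, and the flap endonuclease FEN1. For ORC3 that rule left out 1 peak, in control 2, which ran from 68 bases before the start to base 58 from it, at percentile 34.6. A gene without a counted peak is not shown to lack ac4C, since the level of its RNA is not in these lists. On the opposite strand PRIM2 had 0, 1 and 1 peaks in control and 1 in each knockdown library, and RPA3 had 1 in every library. The median mean peak number was 1.33 over the replication genes with a peak and 1.17 over all genes with a peak.

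In total the replication genes held 53, 57 and 59 peaks in control libraries and 61, 46 and 49 after knockdown. The groups overlapped, with knockdown 1 the highest and knockdown 2 the lowest. The means were 56.3 ± 3.06 (SD, n = 3) and 52 ± 7.94 (SD, n = 3), a difference of -4.33 peaks, knockdown minus control, within the spread of the knockdown libraries. Without knockdown 1 the difference was -8.83, without knockdown 2 it was -1.33 and without knockdown 3 it was -2.83. As a share of all peaks of a library the values were 0.291%, 0.252% and 0.294% in control and 0.212%, 0.257% and 0.257% after knockdown, a difference of -0.0366 percentage points that became -0.0216 without knockdown 1. As a share of all bases under peaks the replication genes took 0.178%, 0.163% and 0.167% in control and 0.125%, 0.138% and 0.156% after knockdown. Every control value lay above every knockdown value, also when peaks at the start windows were added, with the lowest control library at 0.175% and the highest knockdown library at 0.174%. The groups overlapped when only the 50% of peaks scored highest were kept, where control 3 was at 0.133% and knockdown 3 at 0.147%. This share is a summary over genes chosen by name and was given no test.

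Between the groups, 1 replication gene had peak numbers that did not overlap. RFC3, a subunit of the clamp loader, had 0 peaks in each control library and 1 in each knockdown library (two-sided exact permutation test, p = 0.1, and 1 after Benjamini-Hochberg adjustment over the 9903 genes). Over all genes with a peak, 1.58% had higher numbers in every knockdown library and 0.697% in every control library, and peaks in all libraries of 1 group and none of the other were found in 0.394% (knockdown) and 0.374% (control). No other replication gene met either criterion, and a single gene in 31 gives no firm share to set beside these. With 1 library left out the count was 2 without control 2 (RFC3 and GINS2), 4 without control 3 (RFC3, MCM5, GINS4 and POLD2) and 4 without knockdown 1 (RFC3, MCM3, MCM10 and CDC6). The call of CDC6 rests on the midpoint rule, as described below. Fewer libraries make the criterion easier to meet, and the shares of all genes were not computed with a library left out, so these added genes are not results. The means were higher in knockdown for 6 genes, higher in control for 13 and equal for 12, and over all genes with a peak they were higher in knockdown for 4417, in control for 3130 and equal for 2356. The median difference was 0 in both sets.

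The licensing genes held 8, 6 and 5 peaks in control and 9, 4 and 4 after knockdown, and the groups overlapped. ORC2, the only ORC subunit with a peak in every library, had 2, 1 and 1 peaks in both groups, and its main region at chr2:200957401-200957544 was listed in 5 libraries. ORC4 had a peak only in control 1 and knockdown 1, in different regions of its long span. ORC5 had 1, 0 and 1 peaks in control and 2, 0 and 0 after knockdown. ORC6 had 0, 1 and 0 in control and 0, 1 and 1 after knockdown. The sparse ORC peaks thus changed from library to library within a group as much as between groups.

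CDT1, the MCM loading factor, had its lasting peak at the far end of the gene, a region of 1144 bases at chr16:88808115-88809258 (89.5% of the span from the 5′ end), listed in all 6 libraries. Its score percentiles were 83.2, 94.8 and 93.2 in control and 92.7, 94 and 93.2 after knockdown, of which all but control 1 were at the tie. A peak at the CDT1 start was listed in control 1 alone, at percentile 99.8. Geminin (GMNN), which inhibits CDT1, had 1, 2 and 1 peaks in control and 2, 1 and 1 after knockdown, and none of its 4 regions was listed in more than 3 libraries. Each library did list a peak near the GMNN 5′ end. It lay 0.154 kb from that end in control 2, knockdown 1 and knockdown 3, and 0.709 kb from it in control 1, control 3 and knockdown 2.

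CDC6, the ATPase that joins ORC at origins, had 1 peak in each control library and 1, 0 and 0 in knockdown libraries by the midpoint rule. This count hides a peak that all 6 libraries listed across the start, at chr17:40287633-40288090. All 6 peaks ended at base 212 from the start, and they began 114, 133 and 123 bases upstream in control and 246, 246 and 220 bases upstream after knockdown. The knockdown peaks therefore had their midpoint upstream of the gene, and the 1 peak counted in knockdown 1 was another of 9 bases. Bases under the CDC6 start peak were 326, 345 and 335 in control and 458, 458 and 432 after knockdown, and the groups did not overlap. It was the only replication gene region longer in every knockdown library, among 27 shared by all 6 libraries, and over all 9195 shared regions the share was 0.914%. The score percentiles of this CDC6 peak, 90.3, 87 and 86.5 in control and 92.7, 83 and 93.2 after knockdown, overlapped.

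The helicase genes had the most peaks of any role, 18, 22 and 28 in control and 25, 16 and 19 after knockdown, with overlapping groups. MCM5, a subunit of the MCM ring, had 3, 2 and 8 peaks in control and 6, 5 and 5 after knockdown, and control 3 alone exceeded the knockdown libraries. Its regions at 0.378 kb and 3.34 kb from the 5′ end were listed in all 6 libraries, and none of its 8 regions lay beyond 19.8 kb. MCM3 had 5, 5 and 7 peaks in control and 5, 2 and 4 after knockdown, of which its start region and a region 1.99 kb from the 5′ end were in all 6 libraries. MCM2 had 1, 5 and 4 peaks in control and 4, 3 and 3 after knockdown by the midpoint rule. That rule counted its start peak in control 2 alone, though all 6 libraries listed one. The lower number of MCM3 in knockdown 2 came from the regions in the body of the gene, and that of MCM2 in control 1 came mostly from such regions. The regions close to the start were present in these libraries too. MCM6 had 1, 2 and 1 peaks in control and 0, 1 and 1 after knockdown.

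**Figure D1:**
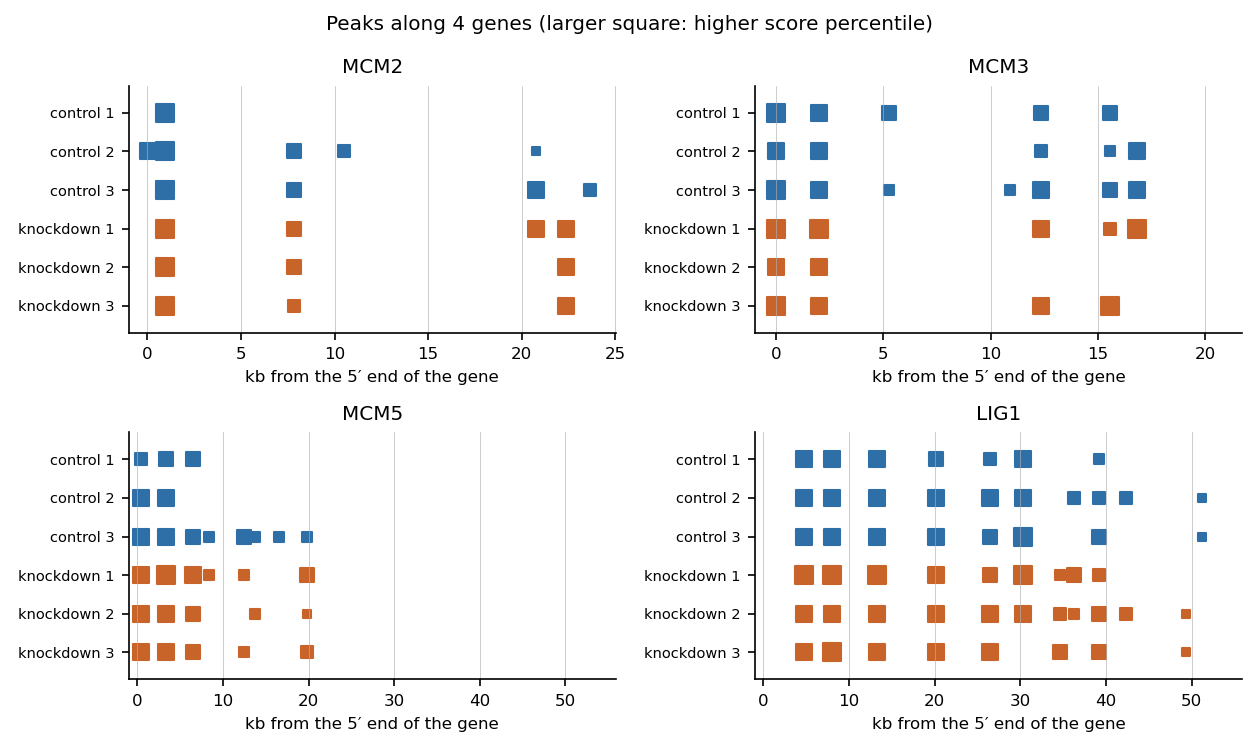
Peaks along MCM2, MCM3, MCM5 and LIG1, with the distance of the peak midpoint from the 5′ end of the gene in kb on the x axis and 1 row per library (blue, control; orange, NAT10 knockdown). Larger squares have higher score percentiles, and only peaks with their midpoint in the gene are drawn; the columns of squares at the same position in all rows, such as 0.913 kb in MCM2 and 4.76 kb in LIG1, are the regions shared by all 6 libraries.

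CDC45, which joins the MCM ring in the active helicase, had 1, 2 and 2 peaks in control and 4, 1 and 2 after knockdown. None of the 6 CDC45 regions was listed in more than 3 libraries, so its presence in every library rested on different regions. MCM10 had 2 peaks in each control library and 3, 1 and 1 after knockdown. Its start region at chr10:13161554-13161606 was listed in 5 libraries, all but control 1, and its other regions in 1 or 2. The GINS genes, which hold CDC45 and the ring together, differed from each other, and GINS3 had no peak. GINS1 had 1 peak in every library, at chr20:25407727-25407895, with the same edges. GINS2 had 2, 1 and 2 peaks in control and 1 in each knockdown library, and GINS4 had 2, 2 and 1 in control and 1 in each knockdown library. The GINS4 peaks lay in 1 region and covered 671, 637 and 326 bases in control and 200, 281 and 1078 after knockdown.

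The primase and polymerase subunits, most of them accessory ones, held 11, 9 and 9 peaks in control and 9, 8 and 9 after knockdown. POLA2, the regulatory subunit of polymerase alpha, had 2, 2 and 4 peaks in control and 4, 2 and 3 after knockdown, and POLA1, the catalytic subunit, had 2, 2 and 1 and then 1, 2 and 2. The polymerase epsilon subunit POLE3 had 1 peak in every library, and POLE4 had 2, 1 and 1 in control and 1 in each knockdown library. POLD3, a subunit of polymerase delta, had 2 peaks in every library, one at the start and one 18.9 kb into the gene at chr11:74611499-74611538. The latter was short, 40, 40 and 33 bases in control and 26, 28 and 28 bases after knockdown, and it was the only replication gene region shorter in every knockdown library (0.587% of all shared regions). POLD2, another subunit of polymerase delta, had 2, 1 and 0 peaks in control and 0 in each knockdown library, so control 3 was at the value of the knockdown libraries.

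The clamp loader genes held 7, 6 and 6 peaks in control and 6 in each knockdown library. RFC2 had 2 peaks in every library, at chr7:74252429-74252498 and, across the start, at chr7:74254271-74254458, with the same edges in all 6. RFC4 had 2, 1 and 1 peaks in both groups by the midpoint rule, which left out start peaks of control 2, knockdown 2 and knockdown 3, so its start was peaked in 5 libraries. RFC1, the large subunit, had 2, 1 and 2 peaks in control and 0, 2 and 1 after knockdown, and RFC5 had 1, 2 and 1 and then 1, 0 and 1. The RFC3 peak lay across its start at chr13:33818064-33818265, overlapping the sequence printed above, and ended at base 117 after the start in the 3 knockdown libraries. Its score percentiles of 47.4, 19.3 and 18.5 were low, and when only the 50% of peaks scored highest were kept RFC3 had no peak.

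Of the RPA subunits, RPA1 had 0, 1 and 1 peaks in control and 1, 0 and 1 after knockdown, and RPA3 had 1 in every library other than knockdown 2. RPA2 had 1, 2 and 1 peaks in control and 1 in each knockdown library, with a region 0.509 kb from its 5′ end that all 6 libraries listed with the same edges. RPA1 also had a peak upstream of its start in all 6 libraries, from 303 to 105 bases before it, whose midpoint was outside the gene and which was not counted.

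LIG1, the ligase that seals nicks between Okazaki fragments, had more peaks than any other replication gene, 7, 10 and 8 in control and 9, 11 and 8 after knockdown (8.33 ± 1.53 and 9.33 ± 1.53, SD, n = 3; two-sided exact permutation test, p = 0.6). Per 10 kb of span it had 1.61 peaks, below the 2.84 of POLE3, the 2.25 of MCM3 and the 2.13 of CDT1. Its 12 regions ran from 4.76 kb to 51.2 kb from the 5′ end, and 6 of them were in all 6 libraries. A further peak across the LIG1 start, from 259 bases before it to 104 after it, was identical in position in all 6 libraries and at the tie in each, but its midpoint lay outside the gene.

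Starts of transcripts were examined with a window of 250 bases before to 50 bases after each start, in which any peak on the same strand was counted wherever its midpoint lay. Such a start peak was listed for 23 of 40 replication genes (57.5%), against 39.3% of all genes, and in all 6 libraries for 11 (27.5%), against 17.9%. The 11 were CDC6, MCM2, MCM3, GINS2, POLA1, POLA2, POLE4, POLD3, RFC2, RPA1 and LIG1. Among genes with a peak, a start peak in all 6 libraries was found for 35.5% of 31 and 28.1% of 9903 genes. Of the merged regions of replication genes that were in all 6 libraries, 18 of 27 (66.7%) lay in the first 10% of the gene span, against 38.3% of 7480 such regions over all genes, and the median position was 3.8% and 30% of the span from the 5′ end. Regions in 1 library lay farther in, at a median of 43.6% in replication genes and 60.5% in all genes. The median span was 30.7 kb for the replication genes and 25.6 kb for all genes. These shares describe genes that were chosen by name and have no test.

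The edges of start peaks were often the same to the base. GINS2 ran from 45 bases before to 146 after the start, and POLE4 from 151 before to 250 after, in all 6 libraries. Over the 71 replication gene regions in 2 or more libraries, 48 (67.6%) had 1 start and 1 end in every library that listed them, against 60.6% of 25614 regions of the whole series. Of those in all 6 libraries the order was the other way, with 16 of 27 (59.3%) against 68.9% of 9195. A further group differed at 1 edge, so that 68 (95.8%) kept a start or an end, against 91.1%. POLA2 was among those that varied, with 416, 506 and 435 bases in control and 387, 610 and 610 after knockdown, and POLE3 was at 313 bases in knockdown 1 against 1696 to 1749 in the other 5. The MCM2 start peak covered 102 bases in control 2 and 250 in the others.

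Peaks of the 6 libraries that shared a base on the same strand were merged into 41755 regions, of which 97 belonged to replication genes. Of these, 27 (27.8%) were listed in all 6 libraries and 26 (26.8%) in 1, against 22% and 38.7% of all regions. The 41755 regions were not limited to gene spans. A peak in all 3 knockdown and no control libraries was listed for 3 of the 97, against 342 of the 41755 (0.819%). A peak in all 3 control and no knockdown libraries was listed for 0 of the 97, against 142 of the 41755 (0.34%). Counts this small give no firm share. The 3 were the RFC3 start region, an MCM2 region at chr3:127620698-127620880, 93.1% of the way along the gene, and a LIG1 region at chr19:48135680-48135779, 34.6 kb from its 5′ end. Each had a two-sided Fisher's exact p of 0.1, the smallest that 3 against 3 libraries allow. The MCM2 region was at percentiles 67.2, 72.3 and 68.2 in the knockdown libraries, the highest of the 3 regions, and was kept among the higher-scored 50% of peaks. The LIG1 region was at 16.4, 38.9 and 56.2, and under that filter it was in knockdown 3 alone. Without control 2 the number of regions in 1 group only was 6, of which 3 were in control, and without control 3 it was 5, of which 1 was in control. The criterion is easier to meet with a library left out, and the shares of all regions were not computed for that.

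In the 27 shared regions, score percentiles of the groups did not overlap in 3. They were higher in every knockdown library in 2, where the share of all shared regions was 6.98%, and higher in every control library in 1, where it was 4.05%. The median difference, knockdown minus control, was 2.81 percentile points over the 27 regions and 0.703 over all 9195. Of the 27, 15 were above 0 and 12 below, and over all shared regions 4936 were above and 4259 below. LIG1 alone gave 6 of the 15 above 0 and none of the 12 below, so the median of the 27 leans on 1 gene. The start region of GINS2 at chr16:85688809-85688999 was at 55.3, 61.8 and 61.7 in control and at 47.3, 41.4 and 32.1 after knockdown, a difference of -19.3 (two-sided exact permutation test, p = 0.1). Its edges were the same in all 6 libraries. The MCM2 start region at chr3:127598223-127598472 was at 59.1, 77.6 and 45.5 in control and at 92.7, 81.8 and 81.4 after knockdown, a difference of 24.6 (p = 0.1, same exact test). It belongs to the gene by the midpoint rule through the short peak of control 2 alone, and without that library it was not counted.

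The LIG1 region 20.2 kb from the 5′ end, at chr19:48150088-48150210, was at 46.8, 67 and 78.8 in control and at 85, 82 and 83.2 after knockdown, a difference of 19.2 (two-sided exact permutation test, p = 0.1) that fell to 10.5 without control 1. All 6 shared regions of LIG1 counted by the midpoint rule had a higher mean percentile after knockdown, and 5 of them overlapped between the groups. These regions lie in 1 gene and share its RNA, so they are not independent, and the level of LIG1 RNA is not in these lists. The LIG1 start peak, which that rule left out, did not go the same way. It was at the tie in all 6 libraries, at 96, 94.8 and 93.2 in control and 92.7, 94 and 93.2 after knockdown. The number of shared regions that did not overlap was 5 without control 2 and 8 without control 3, without knockdown 1 or without knockdown 2, and it was 0 among the higher-scored 50% of peaks. Leaving out a library makes non-overlap easier to reach, and the matching shares of all shared regions were not computed.

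The remaining shared regions overlapped between the groups and ranged widely in score. The MCM2 region 0.913 kb from the 5′ end was the highest, at percentiles 92, 94.8 and 93.2 in control and 92.7, 94 and 93.2 after knockdown, all at the tie but control 1. POLE4 at its start was at 90.5, 85.9 and 80.9 and then at 92.7, 78.7 and 80.2, and the RFC2 start region was at 75.8, 76.9 and 69.9 and then at 84.7, 69 and 63.1. At the low end, the GINS4 region was at 21.8, 60.4 and 9.05 in control and 1.63, 18.8 and 7.99 after knockdown, with control 2 alone above the others. The spread between libraries of 1 group thus exceeded the distance between the groups in GINS4 and in POLE3, which was at 60.4, 71 and 17 in control and 92.7, 25.1 and 69.8 after knockdown.

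Counted by bases under peaks instead of peak numbers, 2 replication genes did not overlap between the groups. RFC3 was higher in knockdown, where the share of all genes was 3.75%, and CDC6 was higher in control, where it was 2.03%. The CDC6 value rests on the midpoint rule, which left its start peak out in the knockdown libraries, as described above. In score, the peaks of replication genes were near the middle of their libraries, with a median percentile between 52.5 and 60.4, and their median length, 151 to 175 bases, was below that of all peaks in each of the 6 libraries. At the score of 3100 stood 0, 2 and 4 of the replication gene peaks in control and 13, 2 and 5 after knockdown, and knockdown 1, which stood apart, is also the library with the largest share of its peaks at that score.

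A second list of 38 replication genes outside the machinery above (the catalytic subunits POLE and POLD1, PCNA, checkpoint and chromatin assembly factors, topoisomerases and nucleotide synthesis enzymes) had 31 genes with a peak (81.6%, against 62.5% of all genes), 17 of them in all 6 libraries (44.7%, against 31%). Of these 38 genes 7 without a known strand were counted on either strand, unlike the genes behind the shares of all genes. The median mean peak number was 1.17. DUT, the dUTPase that keeps uracil out of DNA, was its only gene whose numbers did not overlap between the groups, with 1 peak in each control and 2 in each knockdown library, beside the shares of 1.58% and 0.697% over all genes given above, and no gene of the list had peaks in 1 group only. The catalytic subunit of polymerase epsilon, POLE, had 3, 2 and 4 peaks in control and 5, 2 and 3 after knockdown. POLD1, that of polymerase delta, had 4, 5 and 5 and then 5, 3 and 5. PCNA, the clamp that RFC loads, TOP2A and RRM1 had no peak in any library. CHAF1A, the large subunit of a histone chaperone that follows the fork, had 8, 8 and 7 peaks in control and 9, 6 and 6 after knockdown, close to the numbers of LIG1.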

How the data were processed

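SW620 acRIP-seq was deposited as 1 peak list per IP library, 3 control and 3 NAT10 knockdown, and the authors' score per peak is the only measured value. Peak caller, aligner and the unit of the score are not given in the sources used here, the build is GRCh38 per the labels, and replicates were not pooled. The score was used only as a percentile within a library. Without read counts, depth is unknown.

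Genes were placed with the RefSeq GRCh38.p14 gene table. Strand came from its promoter table, for 6 of the 40 members by hand from general knowledge, and 4204 of 20052 protein-coding genes without a strand were left out; genes of the comparison lists without a strand were counted on either strand. Peaks sharing 1 base on a strand were merged into regions. Every replication gene is accounted for, and values in every library are given for the 8 genes with the most peaks, for those with peaks in 1 to 5 libraries and for those that differed between the groups; others were named after their values were seen. Members, lists and thresholds were chosen with earlier results of these data known.

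Groups were compared by whether their values overlapped, by two-sided exact permutation tests over the 20 assignments of 6 libraries and by Fisher's exact test. Same-numbered libraries did not deviate together (correlations over genes -0.175, -0.104 and 0.00275). Alternatives were score filters, strand, assignment of peaks to genes, cover of regions, a replicate block and each library left out, with bases, start windows and merging without strand added after seeing the data. The code was tested on simulated lists. Python 3.11.15, numpy 2.4.6, pandas 2.3.3, scipy 1.17.1 and matplotlib 3.10.9 were used.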

Additional observations from a re-analysis of the deposited data

How the results depend on the processing

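The total and the shares of peaks and of bases in replication genes kept their direction under every alternative; leaving out 1 library at a time gave differences, knockdown minus control, of -8.83 to -1.33 peaks and of -0.0501 to -0.0216 percentage points. The number of genes whose peak numbers did not overlap, 1, was 2 under the score filter that keeps 50% of peaks (CDC6 and GINS2, both higher in control), 3 with 17877 peaks per library (RFC3, MCM3 and CDC6), 2 by bases, and 1 to 4 with a library left out. The CDC6 calls rest on the midpoint rule, which left its start peak out in the knockdown libraries. RFC3 was 0 under the 50% filter. Regions in 1 group only, 3, were 2 under the 50% filter (1 in knockdown and 1 in control). They were 2 with 17877 peaks per library (both in knockdown), and 3 to 6 with a library left out. Shared regions that did not overlap, 3, were 0 under the 50% filter, 8 with the replicate block (1 sign in all 3 same-numbered pairs), and 3 to 8 with a library left out. The block and a library left out both make the criteria easier to meet. Shares over all genes or regions were not computed for them, so these higher counts cannot be read as more differences. With the replicate block the 1 gene was again RFC3 (exact sign-flip p = 0.25, the smallest possible), and same-numbered libraries share only a number. The causes were not tested. No value was given for the MCM2, GINS2 and LIG1 shared regions under the 50% filter, or for the MCM2 one where at least 50% of a region had to be covered. The strand, the overlap rule, a single gene per peak and merging without strand moved none of these counts by over 1.5 times. Depth is unknown, and 3 libraries per group limit every comparison.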
